A study of Mus musculus with 10 samples.

Results

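The follicular B cell genes described here are 5 genes, taken as a list and not chosen by a threshold on these values: Fcer2a, Fcmr, Il4ra, Il21r and Klf2. They are 5 of the 30205 mouse genes counted, and all 5 were among the 15583 genes with enough counts to test. Expression was measured by RNA sequencing of sorted C57BL/6 B lineage cells in 5 groups of 2 libraries. Control cells were wild type. NF-kB-activated cells carried Rosa-NIKdeltaT3flSTOP with CD19Cre, Notch-activated cells carried Rosa-Notch2ICN with CD19Cre, and doubly activated cells carried both Rosa alleles with CD19Cre. NIK is the kinase that starts the alternative NF-kB pathway, Notch2ICN is the intracellular part of the Notch2 receptor, and CD19Cre switches the Rosa alleles on in the B lineage. The fifth group was lymphoma cells of the doubly activated genotype. The other 4 groups were pre-malignant lymph node cells; control, NF-kB-activated and doubly activated cells were labelled as marginal zone precursor B cells and Notch-activated cells as marginal zone B cells. All activated groups carried CD19Cre and the controls did not, so effects of Cre itself cannot be told apart from those of the alleles. The labels give no age, no sex and no sorting markers.

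Naive B cells that recirculate through lymph node and spleen follicles carry a characteristic set of surface receptors. Among these, CD23 (Fcer2a) is the low-affinity receptor for IgE, and the IgM Fc receptor (Fcmr) binds secreted IgM. Il4ra encodes the chain that binds IL-4 and Il21r the chain that binds IL-21; both pair with the common gamma chain to signal through JAK kinases and STAT factors. Klf2 is a zinc-finger transcription factor of resting lymphocytes that controls homing receptors and helps to hold B cells in the follicular state. CD23 protein is low on mature marginal zone B cells, which depend on Notch2, and is used to distinguish them from follicular cells and from marginal zone precursors. The cell type label and the sample titles put the Notch-activated cells in another B cell subset than the other pre-malignant groups, whereas the letters naming their deposited tables end as those of the precursor groups do. The names thus disagree on the subset, and subset, sorting gate and allele cannot be told apart in any comparison with that group.

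Libraries held 16380889 to 23102081 estimated counts. Values below are read counts relative to library size (CPM) scaled by the trimmed mean of M-values (TMM), and differences are log2 fold changes with standard errors (SE) from edgeR's quasi-likelihood test over all 15583 genes, called at a Benjamini-Hochberg adjusted p under 0.05. The numbered libraries of a group are not said to come from separate animals, so a p-value here reflects library-to-library spread, which may be technical. The 7 B cell markers (Ms4a1, Cd79a, Cd79b, Pax5, Ebf1, Cd22 and Blk) were detected in every library, and their summed level was 7894.1 to 8020.3 CPM in control and 3185.1 to 3415.9 CPM in the Notch-activated group, the lowest of the 5. Notch2 itself was lower in the libraries labelled Notch-activated (284.1 and 278.3 CPM) than in control (651.5 and 689.7 CPM), as it was in lymphoma (154.7 and 178.5 CPM), and was not called in doubly activated cells (702.3 and 752.8 CPM, adjusted p = 0.376), while Heyl, a Notch target, was higher in the libraries labelled Notch-activated, at 47.5 CPM ± 4.86 (SD, n = 2) against 0.406 ± 0.0351. Map3k14, the NIK gene, was 217.1 to 254.7 CPM in NF-kB-activated and doubly activated cells against 102.9 and 129.6 CPM in control. The Y-linked Ddx3y was at most 2.4 CPM in control library 2 and both libraries labelled Notch-activated and 59.8 to 186.6 CPM in the other 7. The 2 control libraries thus differed in Y-linked RNA. It also separated the libraries labelled Notch-activated from the NF-kB-activated, doubly activated and lymphoma libraries. Sex thus cannot be told apart from the allele in those comparisons. The 2 libraries labelled Notch-activated are called Notch-labelled below. Their level of Cr2 (CD21, a marker that marginal zone B cells carry at a high level) was 110.8 and 109.9 CPM against 1873.9 to 2940.3 CPM in the 6 precursor libraries, which goes against their cell type label. A single immunoglobulin heavy chain variable segment held most of the variable segment counts in the Notch-labelled libraries (92.9% and 94.0% of 6184 and 6162 counts, Wilson 95% intervals 92.3% to 93.5% and 93.3% to 94.5%) and in the lymphoma libraries (92.5% and 92.3% of 68901 and 67860 counts, intervals 92.3% to 92.7% and 92.1% to 92.5%). In the 6 precursor libraries the leading segment held 5.04% to 7.39% (outer bounds of the intervals 4.64% and 7.97%). These intervals cover counting error only. The dominant segment was Ighv1-55 in both Notch-labelled and Ighv1-11 in both lymphoma libraries. The 2 libraries of either group may thus be 1 clone sampled again. If so, the p-values of these groups reflect no spread between animals or tumours. Comparisons of either group with a precursor group therefore set libraries with 1 dominant segment against libraries with many, and comparisons between them set libraries with different dominant segments.

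All 5 genes were high in control cells and were lowest, or next to lowest, in the Notch-labelled libraries. For Fcer2a, Il4ra and Fcmr the 3 precursor groups lay above both the Notch-labelled and the lymphoma libraries; Il21r in lymphoma lay within the doubly activated range or close to it. In the bulk libraries, fewer cells that express a gene and less RNA per cell cannot be told apart. The plot of CPM by library shows the 5 genes in all 10 libraries.

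**Figure D1:**
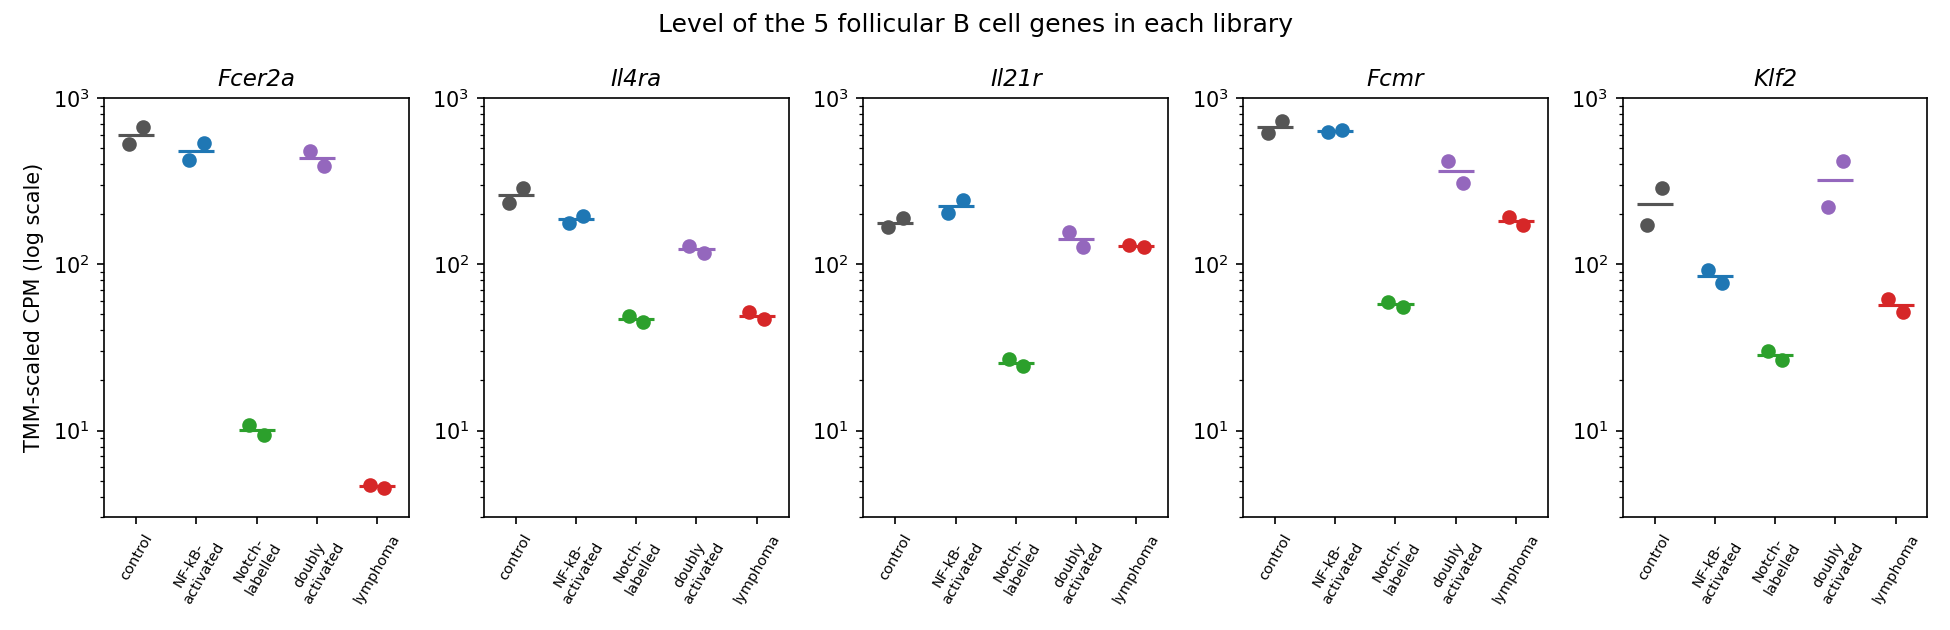
CPM of each of the 5 genes (log scale) in the 10 libraries, by group; each point is 1 library and each line the mean of a group. Fcer2a spans from 4.54 CPM in a lymphoma library to 668.9 CPM in a control library, whereas Il21r in lymphoma (129.8 and 127.2 CPM) sits beside the doubly activated libraries (157.3 and 127.4 CPM).

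Fcer2a, the CD23 gene (ENSMUSG00000005540, GRCm38 chr8:3681737-3694175, minus strand), had the widest range of the 5. It stood at 531.7 and 668.9 CPM in the control libraries, at 420.9 and 537.5 CPM in NF-kB-activated cells and at 480.6 and 391.1 CPM in doubly activated cells. These 3 groups lay close together, and the NF-kB-activated range overlapped both others. The Notch-labelled libraries held 10.8 and 9.39 CPM, from 217 and 190 estimated counts, and the lymphoma libraries 4.72 and 4.54 CPM, from 102 and 93 counts. No library of these 2 groups came near a precursor library. The labels do not say whether CD23 was used in sorting. If it was, the closeness of the precursor groups and the gap below them may partly reflect the sorting gate. This was not tested. Against control, Fcer2a fell by 5.89 ± 0.19 (log2, SE) in the Notch-labelled libraries (adjusted p = 3.61e-09) and by 7.02 ± 0.20 in lymphoma (adjusted p = 1.65e-09), a 129-fold difference. Lymphoma was lower than doubly activated cells by 6.55 on the log2 scale (adjusted p = 2.87e-09), and lower than the Notch-labelled libraries by 1.13 (adjusted p = 0.000974). In doubly activated cells the difference from control was -0.46 ± 0.15, which missed the threshold (adjusted p = 0.0516) and was past it in 10 of 22 alternative analyses (adjusted p from 0.00434 to 0.32). The difference between doubly and NF-kB-activated cells was -0.14 (95% interval -0.46 to 0.19, adjusted p = 0.603).

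The letters upstream of the Fcer2a starts are shown because motifs of factors downstream of Notch, IL-4 and NF-kB can be searched in them. RefSeq (GRCm38.p6) has 3 starts for Fcer2a, and the 250 bases before 2 of these are printed 5′ to 3′ on the gene's strand, with motif matches in capitals. The first lies at chr8:3694175-3694424 and precedes the start of the transcript in the files; the other lies at chr8:3690862-3691111.
Fcer2a promoter 1: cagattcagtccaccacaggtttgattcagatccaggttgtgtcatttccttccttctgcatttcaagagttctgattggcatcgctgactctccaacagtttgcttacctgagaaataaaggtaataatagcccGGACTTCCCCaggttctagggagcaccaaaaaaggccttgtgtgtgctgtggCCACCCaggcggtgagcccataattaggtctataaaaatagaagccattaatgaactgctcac
Fcer2a promoter 2: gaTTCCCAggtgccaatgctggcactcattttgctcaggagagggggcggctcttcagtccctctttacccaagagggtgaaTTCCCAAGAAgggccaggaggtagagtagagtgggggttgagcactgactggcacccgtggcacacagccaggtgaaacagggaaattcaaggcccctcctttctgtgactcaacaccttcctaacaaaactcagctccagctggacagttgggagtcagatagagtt
Promoter 1 held 1 match to an NF-kB motif (GGG and CC with 5 bases between them, here GGACTTCCCC, read on the other strand) and 1 to a KLF motif (CCACCC), and no match to the RBPJ motif (TGGGAA), RBPJ being the DNA-binding partner of Notch. In promoter 2 the letters TTCCCAAGAA, 168 bases before the start, matched the STAT6 motif (TTC and GAA with 4 bases between them) and, in their first 6 letters read on the other strand, the RBPJ motif as well. A further RBPJ match lay 248 bases before that start. The promoter of the third start, not printed for length, held 1 RBPJ match, 205 bases before it, and 1 KLF match. Among 32851 promoters of the same length, searched on both strands, 21.6% held the RBPJ motif, 5.85% the STAT6 motif, 45.8% the NF-kB motif and 28.1% the KLF motif. A match describes the letters and is not a measured binding site. Only 1 of 8 annotated Fcer2a transcripts is listed in the files, so which start was used was not analysed here.

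CD23 acts with CD21 and with integrins, and is cut from the surface by the protease ADAM10. More of the 8 partner and protease genes listed were lower than higher where Fcer2a was low, but their median falls were smaller than its own. Against control, 1 of 8 was higher and 6 of 8 lower in the Notch-labelled libraries (median log2 change -0.42, against 0.07 over all tested genes), and 1 was higher and 4 lower in lymphoma (median -0.58, all genes 0.02). In doubly activated cells 1 was higher and 2 lower (median 0.09, all genes 0). Of all tested genes, 34.2% were higher and 29.5% lower in the Notch-labelled libraries, and 27.8% and 25.6% in lymphoma. In doubly activated cells these shares were 10.5% and 9.3%. Cr2 fell by 4.43 ± 0.20 in the Notch-labelled libraries (adjusted p = 7.92e-08) and fell by 6.52 ± 0.22 in lymphoma (adjusted p = 1.43e-08). In doubly activated cells Cr2 stood at 2904.6 CPM ± 50.5 (SD, n = 2) against 2386.3 ± 724.7 in control, a difference below the threshold (adjusted p = 0.305). Adam10 ranged from 114.7 to 146.5 CPM in the group means; it fell by 0.31 ± 0.08 in doubly activated cells (adjusted p = 0.0211). Itgb3, an integrin beta chain, rose by 1.24 ± 0.16 in doubly activated cells (adjusted p = 0.000281), and Itgam, an integrin alpha chain of myeloid cells, fell by 3.81 ± 0.95 there (adjusted p = 0.0335), from 5.22 to 0.393 CPM.

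Fcmr, the IgM Fc receptor gene (ENSMUSG00000042474, chr1:130865669-130880791, plus strand), was highest in control, at 615.7 and 729.6 CPM, and in NF-kB-activated cells, at 624.2 and 644.1 CPM. Those 2 groups overlapped. Doubly activated cells held 418.8 and 308.1 CPM, lymphoma 191.4 and 171.7 CPM, and the Notch-labelled libraries 59.5 and 55.1 CPM. Each of these 3 groups lay below the one before it with no overlap, and each step was called (adjusted p = 0.00304 for doubly below NF-kB-activated, 9.19e-05 for lymphoma below doubly activated, 2.03e-06 for Notch-labelled below lymphoma). The fall from control was 0.89 ± 0.13 on the log2 scale, or 1.85-fold, in doubly activated cells (adjusted p = 0.000816), 1.89 ± 0.14 in lymphoma (adjusted p = 6.03e-07) and 3.55 ± 0.15 in the Notch-labelled libraries (adjusted p = 7.56e-09). For NF-kB-activated cells the difference was -0.09 (95% interval -0.38 to 0.21, adjusted p = 0.754). The main transcript, Fcmr-201, held 92.71% to 99.02% of the gene's counts. On the TPM scale, which corrects for transcript length, Fcmr was the most abundant of the 5 in control cells, at 753.4 TPM ± 49.2 (SD, n = 2), followed by Fcer2a (397.0), Klf2 (188.4), Il21r (99.7) and Il4ra (72.3). The 250 bases before its RefSeq start held 2 NF-kB matches and no RBPJ, STAT6 or KLF match.

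Of 9 further IgM and Fc receptor genes, 3 were higher and 3 lower in doubly activated cells than in control. In lymphoma 3 were higher and 4 lower. Of all tested genes, 10.5% were higher and 9.3% lower in doubly activated cells, and 27.8% and 25.6% in lymphoma. Fcgr2b, the inhibitory IgG receptor of B cells, fell by 1.22 ± 0.08 in doubly activated cells (adjusted p = 4.7e-07) and by 0.90 ± 0.07 in NF-kB-activated cells (adjusted p = 6.32e-06), where Fcmr was not called. Ighm, the constant region of IgM, did not follow Fcmr: it was 3999.9 CPM in control, 4468.1 CPM in the Notch-labelled libraries (adjusted p = 0.134), 5157.1 CPM in NF-kB-activated cells (log2 rise 0.37 ± 0.09, adjusted p = 0.0146), 5428.0 CPM in doubly activated cells (log2 rise 0.44 ± 0.09, adjusted p = 0.00402) and 23579.1 CPM in lymphoma (log2 rise 2.56 ± 0.09, adjusted p = 6.46e-10). Fcgrt, the neonatal Fc receptor, fell by 1.99 ± 0.33 in doubly activated cells (adjusted p = 0.00145). In the Notch-labelled libraries 0 of the 9 were higher and 6 lower (median -0.77, all genes 0.07). There 34.2% of all tested genes were higher and 29.5% lower.

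Il4ra (ENSMUSG00000030748, chr7:125552120-125579474) and Il21r (ENSMUSG00000030745, chr7:125603429-125633570) are neighbours on the plus strand of chromosome 7, 23954 bases apart with 0 counted genes between them. The bases before both starts are shown because, of this neighbouring pair, Il4ra was called lower in lymphoma than in doubly activated cells and Il21r was not; that contrast between the genes was not tested. These bases lie at chr7:125552021-125552270 and chr7:125603179-125603428, before the RefSeq (GRCm38.p6) starts, again with matches in capitals. The RefSeq start of Il4ra lies past the start of the counted transcript, at 125552120.
Il4ra promoter: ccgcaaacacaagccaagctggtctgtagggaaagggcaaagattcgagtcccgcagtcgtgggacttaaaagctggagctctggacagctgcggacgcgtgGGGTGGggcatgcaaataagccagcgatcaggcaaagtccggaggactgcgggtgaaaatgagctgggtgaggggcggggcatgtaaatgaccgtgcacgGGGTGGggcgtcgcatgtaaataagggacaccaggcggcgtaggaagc
Il21r promoter: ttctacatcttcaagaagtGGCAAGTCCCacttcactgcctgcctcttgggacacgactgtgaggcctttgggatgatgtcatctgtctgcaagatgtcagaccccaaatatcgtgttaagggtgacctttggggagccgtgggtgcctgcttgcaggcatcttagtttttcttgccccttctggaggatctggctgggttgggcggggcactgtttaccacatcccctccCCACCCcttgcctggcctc
The Il4ra letters held 2 KLF matches, both read on the other strand, and the Il21r letters held 1 NF-kB match and 1 KLF match. Both Il4ra matches lie within the counted transcript and not before it. Neither held the RBPJ motif or either STAT motif (that of STAT6 and TTCNNNGAA, the latter in 7.02% of promoters).

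Il4ra stepped down from group to group. Control libraries held 234.6 and 286.7 CPM, NF-kB-activated cells 177.9 and 195.3 CPM, and doubly activated cells 129.4 and 116.7 CPM. These 3 groups did not overlap. Lymphoma held 51.4 and 46.6 CPM and the Notch-labelled libraries 48.6 and 45.2 CPM, and those did. The fall from control was 0.48 ± 0.10 in NF-kB-activated cells (adjusted p = 0.00723), 1.08 ± 0.11 or 2.12-fold in doubly activated cells (adjusted p = 1.8e-05), 2.41 ± 0.11 in lymphoma (adjusted p = 3.84e-09) and 2.47 ± 0.11 in the Notch-labelled libraries (adjusted p = 3.69e-09). Without control library 2 or without NF-kB-activated library 1, the first of these was not called (adjusted p = 0.0525 and 0.085). Doubly activated cells were below NF-kB-activated cells by 0.60 on the log2 scale (adjusted p = 0.00304), and lymphoma and Notch-labelled libraries differed by 0.06 (95% interval -0.17 to 0.30, adjusted p = 0.632).

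Il21r was the one gene of the 5 that was not called between lymphoma and doubly activated cells. It was highest in NF-kB-activated cells, at 204.5 and 243.2 CPM, above control at 166.7 and 188.5 CPM, doubly activated cells at 157.3 and 127.4 CPM and lymphoma at 129.8 and 127.2 CPM. The Notch-labelled libraries stood apart at 26.8 and 24.5 CPM. The NF-kB-activated libraries did not overlap control, but the difference of 0.33 ± 0.11 was not called (adjusted p = 0.0714), nor was that of doubly activated cells from control, -0.32 (adjusted p = 0.0725). Doubly activated cells were below NF-kB-activated cells by 0.65 (adjusted p = 0.00324). Lymphoma was below control by 0.47 ± 0.11, a 1.38-fold difference (adjusted p = 0.00437), and differed from doubly activated cells by -0.15 (95% interval -0.40 to 0.10, adjusted p = 0.307). In the Notch-labelled libraries Il21r fell by 2.79 ± 0.13 (adjusted p = 4.57e-09), and lymphoma was 2.32 above them (adjusted p = 2.52e-08).

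Listed genes of IL-4 and IL-21 receptor signalling were called in both directions against control, except in NF-kB-activated cells. Among 17 other members, 3 were higher and 0 lower in NF-kB-activated cells (median 0.10, all genes 0), 5 higher and 1 lower in doubly activated cells (median 0.06), 8 higher and 8 lower in the Notch-labelled libraries (median -0.21) and 8 higher and 9 lower in lymphoma (median -0.30). Over all tested genes 34.2% were higher and 29.5% lower in the Notch-labelled libraries, and 27.8% and 25.6% in lymphoma. These shares were 8.72% and 6.6% in NF-kB-activated cells, and 10.5% and 9.3% in doubly activated cells. The common gamma chain Il2rg rose by 0.42 ± 0.08 in NF-kB-activated cells (adjusted p = 0.00262) and by 0.37 ± 0.08 in doubly activated cells (adjusted p = 0.00496). Jak3, the kinase bound to that chain, rose by 1.22 ± 0.09 (adjusted p = 1.81e-06) and 1.0 ± 0.09 (adjusted p = 7.84e-06) in these groups, from 214.5 CPM in control to 498.1 and 428.1 CPM. Both were below control where Il4ra was lowest: Il2rg fell by 0.72 ± 0.08 in the Notch-labelled libraries (adjusted p = 4.83e-06) and fell by 0.49 ± 0.08 in lymphoma (adjusted p = 0.000172), and Jak3 fell by 0.33 ± 0.09 (adjusted p = 0.00559) and fell by 0.44 ± 0.09 (adjusted p = 0.00102). Stat6, the main factor downstream of IL-4, was 311.1 CPM in control and 295.0 CPM in doubly activated cells (adjusted p = 0.599), and fell by 1.04 ± 0.09 in lymphoma (adjusted p = 7.53e-07). Stat3, which IL-21 activates, was 225.3 and 206.9 CPM in control and doubly activated cells (adjusted p = 0.316) and fell by 0.67 ± 0.08 in lymphoma (adjusted p = 1.54e-05). Jak1 fell by 1.75 ± 0.07 in the Notch-labelled libraries (adjusted p = 2.31e-09) and by 1.85 ± 0.07 in lymphoma (adjusted p = 1.25e-09). Socs1, a feedback inhibitor of this signalling, rose in each of the 4 groups against control, from 7.99 CPM to 20.1 CPM in lymphoma and 72.7 CPM in the Notch-labelled libraries (adjusted p = 0.000489 and 4.5e-07). Irs2, an adaptor of the IL-4 receptor, rose by 2.91 ± 0.30 in doubly activated cells (adjusted p = 0.000891).

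Among genes that IL-4 raises in B cells, more rose than fell in the precursor groups in which Il4ra fell. Of 11 such genes other than Fcer2a and Il4ra, 5 were higher and 0 lower in NF-kB-activated cells (median 0.34, all genes 0). In doubly activated cells 5 were higher and 2 lower (median 0.46, all genes 0). Of all tested genes, 8.72% were higher and 6.6% lower in NF-kB-activated cells, and 10.5% and 9.3% in doubly activated cells. Il4i1, an amino acid oxidase that IL-4 induces, rose by 1.45 ± 0.12 in NF-kB-activated cells (adjusted p = 6.03e-06) and by 1.37 ± 0.12 in doubly activated cells (adjusted p = 7.85e-06). Nfil3, a transcription factor, was 1.36 CPM in control and 1.31 CPM in NF-kB-activated cells and rose by 3.15 ± 0.32 in doubly activated cells, to 12.3 CPM (adjusted p = 2.92e-05). In lymphoma 4 of the 11 were higher and 3 lower (median 0.17, all genes 0.02), against 27.8% and 25.6% of all tested genes. In the Notch-labelled libraries, where Il4ra was also low, 5 were higher and 6 lower (median -0.80, all genes 0.07). There 34.2% of all tested genes were higher and 29.5% lower, and Il4i1 fell by 1.57 ± 0.12 (adjusted p = 3.4e-07).

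Klf2 (ENSMUSG00000055148, chr8:72319033-72321656, plus strand) was the one gene of the 5 that was higher in doubly activated than in NF-kB-activated cells. It stood at 222.3 and 418.8 CPM in doubly activated cells, 172.6 and 288.1 CPM in control, 91.8 and 77.4 CPM in NF-kB-activated cells, 62.0 and 51.5 CPM in lymphoma and 30.0 and 26.7 CPM in the Notch-labelled libraries. Doubly activated and control libraries overlapped, and the other 3 groups lay below both. Within those 2 groups the libraries differed by 1.88-fold and 1.67-fold, more than for any other of the 5 genes in any group. Doubly activated cells were above NF-kB-activated cells by 1.92 ± 0.38 (adjusted p = 0.0268), and 15 of 22 alternative analyses called this. Without doubly activated library 2 it was 1.40 (adjusted p = 0.0658), and without NF-kB-activated library 1 or 2 it was not called either (adjusted p = 0.121 and 0.164). Compared with control, doubly activated cells differed by 0.47 (95% interval -0.43 to 1.38, adjusted p = 0.448) and NF-kB-activated cells by -1.45 ± 0.38 (adjusted p = 0.0569). Klf2 fell by 3.02 ± 0.40 in the Notch-labelled libraries (adjusted p = 0.000966) and by 2.02 ± 0.38 in lymphoma (adjusted p = 0.00577), and lymphoma was below doubly activated cells by 2.50 (adjusted p = 0.00264). The 250 bases before its RefSeq start held 5 NF-kB matches, some of them overlapping, 1 KLF match and no RBPJ match. The last of these bases lie within the gene coordinates given above.

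Immediate early genes, which respond within minutes to stimulation and to the handling of cells, moved with Klf2 between some libraries and against it between others. The 10 immediate early and stress genes used (Fos, Fosb, Jun, Junb, Egr1, Ier2, Dusp1, Zfp36, Atf3 and Hspa1a) were chosen after the data were seen. All 10 were higher in doubly activated library 2 than in library 1, as Klf2 was. In control all 10 were higher in library 1 (Fos at 229.8 against 84.2 CPM, Hspa1a at 233.6 against 3.05 CPM), where Klf2 was lower, at 172.6 against 288.1 CPM. In NF-kB-activated cells 7 of 10 and in the Notch-labelled libraries 8 of 10 were higher in library 2, where Klf2 was lower. In lymphoma 9 of 10 were higher in library 1, as Klf2 was. Against NF-kB-activated cells, 7 of 10 rose in doubly activated cells and 0 fell (median log2 3.58, all genes 0). In this comparison, in which Klf2 was higher, 6.62% of all tested genes were higher and 7.28% lower. Their part in the Klf2 difference was not tested.

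**Figure D2:**
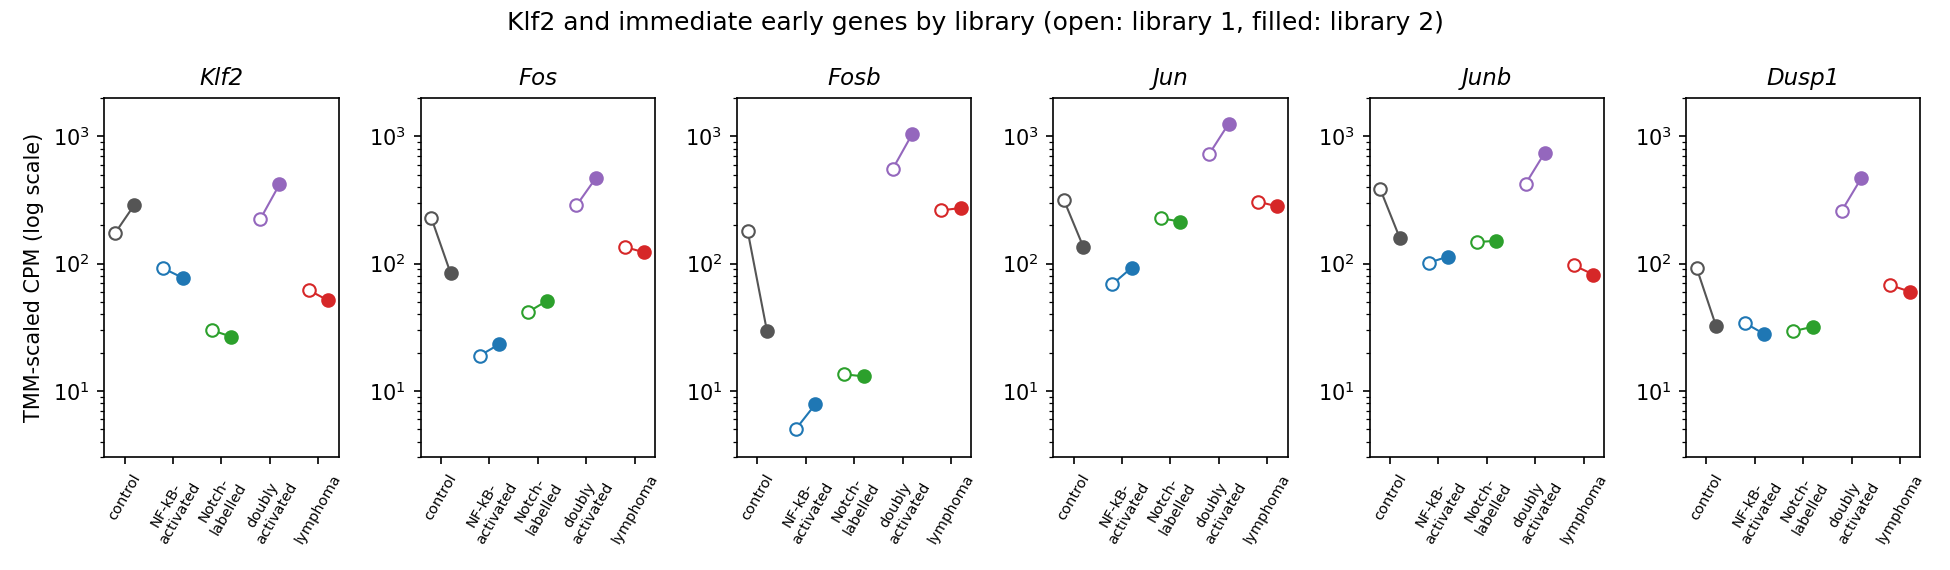
CPM of Klf2 and of 5 of the immediate early genes (log scale) in the libraries of each group, open symbols for library 1 and filled for library 2, joined by a line. Klf2 and the early genes are higher in doubly activated library 2, while in control the early genes are higher in library 1 and Klf2 in library 2.

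KLF2 target genes gave different orders. Of 5 listed, 0 were higher and 2 lower in NF-kB-activated cells than in control (median -0.95), against 8.72% and 6.6% of all tested genes. In doubly against NF-kB-activated cells 3 were higher and 1 lower (median 0.77, all genes 0), against 6.62% and 7.28%. All 5 were lower than control in the Notch-labelled libraries (median -1.89), where 29.5% of all tested genes were. In lymphoma 3 were lower and 0 higher than in control (median -1.1), where 25.6% of all tested genes were lower. S1pr1, the receptor by which lymphocytes leave lymphoid tissue, was, like Klf2, lowest of the precursor groups in NF-kB-activated cells: it was 395.8 CPM ± 32.8 (SD, n = 2) in control, fell by 0.95 ± 0.09 in NF-kB-activated cells (adjusted p = 1.75e-05) and was 0.77 ± 0.09 higher in doubly than in NF-kB-activated cells (adjusted p = 0.000206). In the Notch-labelled libraries S1pr1 was 335.1 CPM, a fall of 0.24 ± 0.09 (adjusted p = 0.031), where Klf2 fell by 3.02. Itgb7, an integrin chain for gut homing, fell by 1.57 ± 0.15 in doubly activated cells (adjusted p = 5.19e-05). Cd69, an activation marker that opposes S1PR1 at the cell surface, rose by 1.83 ± 0.22 in doubly activated cells (adjusted p = 0.000634), from 46.5 to 165.5 CPM. Of 8 genes upstream of Klf2, 1 was higher and 3 lower in doubly activated cells than in control, where 10.5% of all tested genes were higher and 9.3% lower. In the Notch-labelled libraries 2 of the 8 were higher and 6 lower, and in lymphoma 1 was higher and 5 lower (median -0.7 in both). In doubly activated cells the following fell. Mef2c, a factor of the kinase path that induces Klf2, fell by 0.92 ± 0.08 (adjusted p = 1.16e-05), and Foxo1, a factor of resting B cells, by 0.52 ± 0.09 (adjusted p = 0.0017). Other family members did not move as a block: of 10, 3 were higher and 2 lower in doubly activated cells than in control, with Klf6 up by 2.0 ± 0.27 (adjusted p = 0.0025) and Klf3 down by 0.88 ± 0.16 (adjusted p = 0.00219).

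Set out by comparison, the 5 genes split as follows. In NF-kB-activated cells against control 1 of the 5 (Il4ra) was lower, where 6.6% of all tested genes were. In doubly activated cells against control 2 of 5 (Il4ra and Fcmr) were lower, against 9.3% of all genes. Doubly against NF-kB-activated cells gave 3 of 5 lower (Il4ra, Il21r and Fcmr), against 7.28%, and 1 of 5 higher (Klf2), against 6.62%. In the Notch-labelled libraries 5 of 5 were lower than in control, where 29.5% of all genes were lower, and 5 of 5 were higher in doubly activated cells than in the Notch-labelled libraries, where 30.9% of all genes were. Lymphoma had 1 of 5 lower (Fcer2a) than the Notch-labelled libraries, against 32.2%, and 2 of 5 higher (Il21r and Fcmr), against 31%. It had 5 of 5 lower than control, against 25.6%, and 4 of 5 lower than doubly activated cells, against 25.2%. These comparisons share libraries and are not independent of each other.

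**Figure D3:**
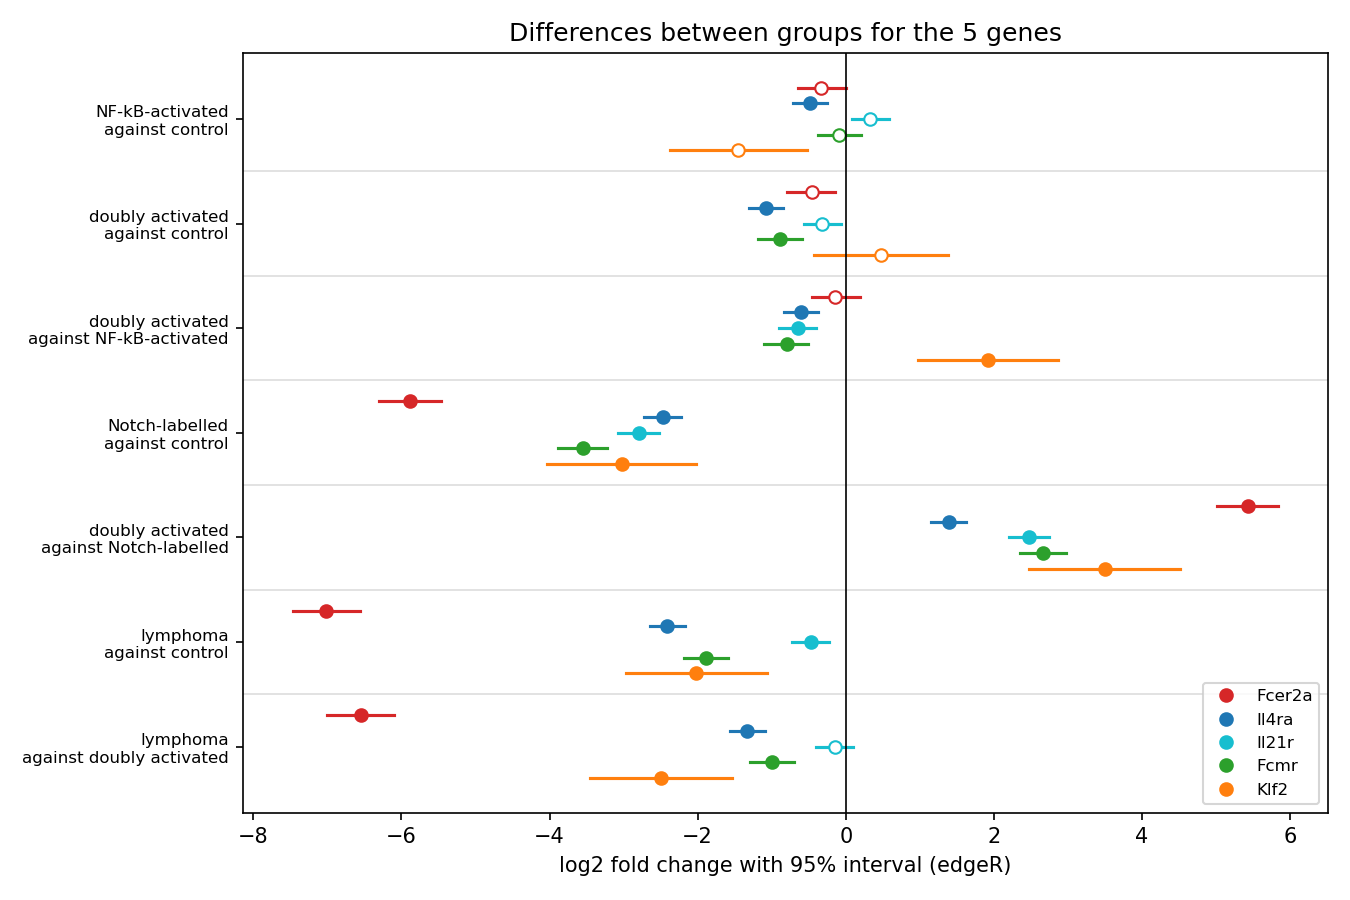
Log2 fold change of each of the 5 genes in each comparison, with 95% intervals; filled circles passed an adjusted p under 0.05 and open circles did not. The changes against control reach -5.89 in the Notch-labelled libraries and -7.02 in lymphoma for Fcer2a, and Il21r in lymphoma against doubly activated cells lies at -0.15 with an interval across 0.

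The design has both alleles alone and together, so their interaction could be estimated. Adding the Notch allele to cells with the NIK allele changed Fcer2a by -0.14, whereas the Notch-labelled libraries differed from control by -5.89; the difference between these effects was 5.75 (95% interval 5.23 to 6.27, adjusted p = 5.38e-08). For Klf2 the pair of effects was 1.92 and -3.02, for Fcmr -0.80 and -3.55, for Il21r -0.65 and -2.79, and for Il4ra -0.60 and -2.47. The interaction was called for 5 of 5 genes, all positive, where 23.9% of all tested genes were called in that direction. It takes in the labelled cell type, the sorting gate and the single variable segment of the Notch-labelled libraries. It also takes in their low Y-linked RNA and their stromal RNA. None of these can be told apart from the allele.

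Most B cell marker genes were also lower in the Notch-labelled and lymphoma libraries. In the former 5 of the 7 fell and Pax5 and Blk rose, by 0.64 ± 0.17 (adjusted p = 0.00982) and 0.21 ± 0.07 (adjusted p = 0.0269); in lymphoma 6 fell and Blk rose, by 0.52 ± 0.08 (adjusted p = 8.45e-05). The most abundant markers carry the sum. The summed level of the 7 B cell markers fell by 1.27 on the log2 scale against control in the Notch-labelled libraries and fell by 0.54 in lymphoma, by this measure chosen after the data were seen. Per 1000 CPM of these markers, Fcer2a was 75.5 ± 13 (SD, n = 2) in control, 3.06 ± 0.159 in the Notch-labelled libraries and 0.848 ± 0.000634 in lymphoma, or 24.7-fold and 89.1-fold below control. On this scale Il21r in lymphoma was not below control: it stood at 23.5 ± 0.276 against 22.3 ± 2.20, a difference smaller than the spread of the control libraries. The other 4 genes stayed below control in both groups, by 2.31-fold (Il4ra in the Notch-labelled libraries) or more.

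Levels of markers of other cells differed between libraries, with high sums both in groups where the 5 genes were low and in precursor groups. All 6 stromal markers were detected in the Notch-labelled libraries, at 633.1 to 856.0 CPM in sum, against 1.5 to 3.7 CPM elsewhere, where Dcn and Lum were at 0. The 12 T cell markers summed to 371.2 to 374.7 CPM there and to 1005.5 to 1078.4 CPM in lymphoma, against 19.2 to 59.1 CPM in the precursor groups. Most of this was Thy1 (257.4 and 247.8 CPM in the Notch-labelled libraries, 878.5 and 830.2 CPM in lymphoma). Cd8b1 was 33.4 and 171.7 CPM in the means of these groups against 3.39 CPM in control, Trbc2 36.5 and 1.22 against 6.22 CPM, and Cd3e 5.77 and 0.649 against 2.66 CPM. Plasma cell markers were highest in lymphoma, at 3005.7 to 3050.4 CPM in sum for 7 markers. Most of this was Irf4, Mzb1 and Xbp1 (means 1133.7, 1016.6 and 665.7 CPM). Tnfrsf17 was 0.332 CPM there, and Jchain 45.9 CPM against 65.8 CPM in doubly activated cells. Neutrophil markers reached 131.0 to 438.4 CPM in NF-kB-activated cells and 73.3 to 74.4 CPM in the Notch-labelled libraries, and at most 21.8 CPM elsewhere. Macrophage markers ranged from 16.5 to 200.7 CPM over all libraries, NK cell markers reached 21.6 CPM and follicular dendritic cell markers 3.91 CPM. The endothelial marker sum was highest in control, at 305.9 to 312.4 CPM, with Emcn at 0 in every group. Nearly all of it was Pecam1 (mean 304.1 CPM in control). Cdh5 was 3.54 CPM in control and 11.9 CPM in lymphoma. The part of these markers in the levels of the 5 genes was not tested.

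Lower values also prevailed among the 12 other follicular B cell genes listed with the 5, which were not tested against them. Against control, 6 were lower and 1 higher in NF-kB-activated cells (median -0.85, all genes 0), 7 lower and 1 higher in doubly activated cells (median -0.71, all genes 0), 12 lower and 0 higher in the Notch-labelled libraries (median -2.22, all genes 0.07), and 10 lower and 0 higher in lymphoma (median -2.16, all genes 0.02). Shares of all tested genes called lower than control were 6.6%, 9.3%, 29.5% and 25.6% in these groups, in that order. Lymphoma was below doubly activated cells for 12 of 12 (median -1.5, all genes 0.01), where 25.2% of all tested genes were lower. Between doubly and NF-kB-activated cells 3 of the 12 were lower and 2 higher (median -0.20, all genes 0), against 7.28% and 6.62%. Foxp1, a transcription factor of mature B cells, fell by 0.71 ± 0.07 in doubly activated cells (adjusted p = 2.5e-05) and Satb1, a chromatin organiser, by 1.25 ± 0.16 (adjusted p = 0.00048). The gene that rose was Gpr183, the oxysterol receptor that guides B cells to the outer follicle, by 1.17 ± 0.13 in doubly activated cells (adjusted p = 5.74e-05) and by 0.84 ± 0.13 in NF-kB-activated cells (adjusted p = 0.000788).

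**Figure D4:**
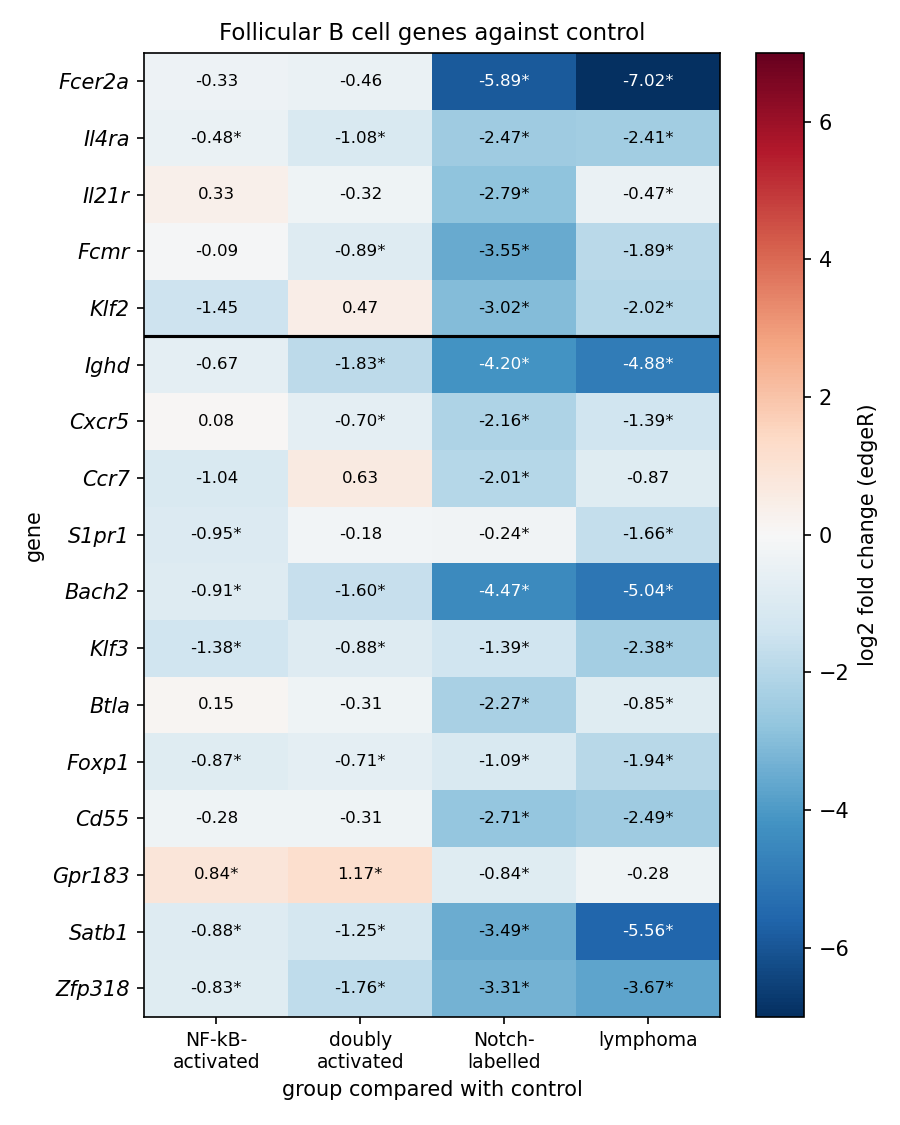
Heat map of the log2 fold change of the 5 genes (above the line) and of the 12 other follicular B cell genes in 4 groups against control; an asterisk marks an adjusted p under 0.05. The Notch-labelled and lymphoma columns are negative for all genes shown, and Gpr183 is positive in NF-kB-activated and doubly activated cells against control.

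Genes of the opposite subset served as a reference. Of 12 marginal zone B cell genes, 7 were higher and 0 lower in doubly activated cells than in control (median 0.95, all genes 0), and 8 were higher and 2 lower in the Notch-labelled libraries (median 0.65, all genes 0.07). Among 8 Notch targets, 6 were higher and 0 lower in the Notch-labelled libraries, and 2 were higher and 2 lower in doubly activated cells. Over all tested genes 34.2% were higher and 29.5% lower in the Notch-labelled libraries, and 10.5% and 9.3% in doubly activated cells. In NF-kB-activated cells 4 marginal zone genes were higher and 2 lower, and 1 Notch target was higher and 3 lower. There 8.72% of all tested genes were higher and 6.6% lower. In lymphoma these counts were 7 and 3, and 3 and 3, where 27.8% of all genes were higher and 25.6% lower. Dtx1, which is on both lists, rose by 1.08 ± 0.12 in doubly activated cells (adjusted p = 7.3e-05) and by 0.50 ± 0.12 in the Notch-labelled libraries (adjusted p = 0.00326).

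Likeness of pattern was measured as Pearson's r of log2(CPM + 1) over the 10 libraries, among 10879 genes, and is a description: the points are 5 pairs of like libraries, and the wide gap of the Notch-labelled and lymphoma libraries from the rest enters every r. The genes most like Fcer2a were Ppp1r18 and Samd9l (r = 0.996 each) and Acap1 (0.995). Il4ra was closest to Rhof (0.999), Rrnad1 (0.995) and Dock11 (0.994), and Il21r to Etnk1 (0.995), Ate1 (0.994) and Rrm2b (0.992). Fcmr was closest to Cd79a (0.994), a chain of the B cell receptor, and to Stat4 and Zbtb37 (0.992 each). Klf2 had the least close partners, Arhgap27 (0.987), Ap1b1 (0.975) and Dnm2 (0.974).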

How the data were processed

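RNA from sorted mouse cells was sequenced in 10 libraries, 5 groups of 2. The authors deposited estimated counts per transcript, not normalized, and TPM from the same run, per the file headers; per the submitters' processing notes they came from kallisto 0.44.0 with mouse build mm10, and which transcript release was indexed is not stated in them. Of 88198 transcripts, 86031 matched GENCODE M21 (GRCm38) and were summed to 30205 genes and rounded; the 2167 others held 1.09% to 1.38% of a library's counts and were left out. edgeR 4.0.16 (R 4.3.3) tested 15583 genes after filterByExpr (minimum count 10, minimum total 15), with TMM scaling, a robust quasi-likelihood fit of all 5 groups, 5 residual degrees of freedom, two-sided tests and Benjamini-Hochberg adjustment over all genes, called at 0.05. The fit was tested on simulated data. TPM was used for levels between genes and for 1 alternative.

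The 5 genes, the gene lists and the comparisons were chosen with earlier results of these data known. Named besides the 5 were the 3 genes of each list with the smallest adjusted p in doubly activated against control cells, partners that act directly with a listed gene (of these and of the marker lists, some are not reported here), and the 3 most alike genes per member, with predicted, Y-linked, Xist and receptor segment entries left out. Heyl, Dtx1, Notch2, Map3k14, Ddx3y, Pax5, Blk, Thy1, Cd8b1, Trbc2 and Cd3e were named as checks, some after their values were seen. Pecam1, Cdh5, Irf4, Mzb1, Xbp1, Tnfrsf17 and Jchain were named from the marker lists after their values were seen. The immediate early genes, the scaling to B cell markers and the alternatives without both Notch-labelled or both lymphoma libraries were added after seeing the data. Replicate numbers are only numbers: across 10 pairs of groups same-numbered libraries' deviations from their group means had r = -0.107 to 0.0863 (10376 genes). Libraries of a group differed beyond counting error (chi-square per degree of freedom 4.48 to 22.1), and each was counted as a sample. Such spread can be technical and does not show that the libraries came from separate animals. Alternatives used DESeq2 1.42.0 and limma 3.58.1 (voom), other scalings and filters, a length offset, the replicate block and each library left out.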

Additional observations from a re-analysis of the deposited data

Results flagged for a closer look

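The interaction term of the NIK and Notch alleles in edgeR's quasi-likelihood fit was called for each of the 5 genes. Over all tested genes 23.9% were called in the same direction and 49.5% in either. The log2 interaction was 5.75 for Fcer2a (adjusted p = 5.38e-08), 1.87 for Il4ra (adjusted p = 1.16e-06), 2.14 for Il21r (adjusted p = 1.1e-06), 2.75 for Fcmr (adjusted p = 1.03e-06) and 4.94 for Klf2 (adjusted p = 0.000667). It stayed called for all 5 genes in the 21 alternatives run with a test, from 5.58 to 5.97 for Fcer2a and from 4.43 to 5.37 for Klf2. The Notch-labelled libraries carry another cell type label, 1 dominant variable segment, low Y-linked RNA and stromal RNA. These and the sorting gate, which the labels do not give, cannot be told apart from the allele. No group had the 4 libraries that a search for outlying libraries needs.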

How the results depend on the processing

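Member counts were within 1.5 times of those reported in 162 of 171 alternative results, and 851 of 890 member fold changes kept direction and call. Exceptions were the following. In NF-kB-activated cells against control 2 members were called with DESeq2 and 2 with an effective length offset, and 0 to 3 with 1 library left out. In doubly activated cells against control 4 were called with library size alone and 4 with DESeq2, and 2 to 4 with 1 library left out; doubly against NF-kB-activated cells gave 3 to 4. Directions reversed only for uncalled differences: Fcmr in NF-kB-activated cells (-0.2 to 0.05 with 1 library left out, the last without control library 2), Klf2 in doubly activated cells against control (-0.05 to 0.89, the first without doubly activated library 2), Fcer2a in doubly against NF-kB-activated cells (-0.31 to 0.04, with 0.04 without NF-kB-activated library 2, 0.01 without doubly activated library 2) and Il21r in lymphoma against doubly activated cells (-0.29 to 0.01, the last without doubly activated library 1); the cause was not tested. The replicate block left the member counts as reported, with 1 called in NF-kB-activated, 2 in doubly activated and 5 in Notch-labelled cells and lymphoma against control. Klf2 in doubly against NF-kB-activated cells was not called when only those groups were fitted (adjusted p = 0.11). It was not called without either Notch-labelled library (0.0591 each) or without both (0.0552), nor without doubly activated library 2 or either NF-kB-activated library. Klf2 in NF-kB-activated cells against control was called with DESeq2 (0.00133), the length offset (0.0297) and without doubly activated library 1 or 2 (0.0162, 0.0154). Over all genes, 2388 calls in NF-kB-activated cells became 1497 and 1435 without NF-kB-activated library 1 or 2; 3090 in doubly activated cells became 1984 with only the groups compared and 1624 without doubly activated library 2; 2165 between these groups became 1394 with the length offset, 1067 and 975 without NF-kB-activated library 1 or 2 and 725 without doubly activated library 2. The lowest Fcer2a value rested on 93 estimated counts, and the effect of depth on the tests was not examined.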
